A study of Homo sapiens with 9 samples.

Results

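Messenger RNA levels of 10 genes of the endoplasmic reticulum (ER) unfolded protein response were followed in HCCLM3, a human line derived from hepatocellular carcinoma. The genes, HSPA5, HSP90B1, DNAJB9, SDF2L1, HERPUD1, XBP1, PDIA4, CALR, CRELD2 and MANF, were taken by symbol from a list of ER chaperones and related genes controlled by the transcription factors ATF6 and XBP1. All 10 were among the 20379 genes of the deposited table, and all 10 passed the filter on low counts that left 12657 genes for testing. Poly(A) RNA was sequenced from cells transfected with a non-targeting siRNA (siRNA-NC, called control here), with a UXS1 siRNA or with an MRPL42 siRNA, with 3 libraries in each of the 3 groups. UXS1 encodes the enzyme that makes UDP-xylose, and the product of MRPL42 is a subunit of the mitochondrial ribosome. All groups come from 1 cell line and went through transfection. The siRNA sequences, the dose and the time of harvest were not given in the sources used here, and no label says that the libraries of a group were separate cultures. The p-values therefore reflect only how far libraries of a group lay apart, and that spread may be technical.

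Proteins that enter the secretory pathway fold in the ER with the help of chaperones, disulfide isomerases and lectins. When unfolded proteins build up there, ATF6 is cut in the Golgi to release a transcription factor, IRE1 (encoded by ERN1) splices the XBP1 mRNA so that it encodes an active factor, and PERK (encoded by EIF2AK3) phosphorylates a translation initiation factor, which raises the translation of ATF4. The ATF6 and XBP1 arm mainly induces chaperones and ER-associated degradation, whereas the ATF4 arm, which other kinases also drive, induces amino acid metabolism, transport and CHOP (encoded by DDIT3). Hepatocyte-derived cells secrete much protein and carry a high basal level of ER chaperones. Only mRNA totals were measured here: cleaved ATF6, spliced XBP1 and protein levels were not, and counts per gene do not separate the spliced from the unspliced XBP1 mRNA.

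In short, no member passed the test in any of the 3 comparisons with all 9 libraries. SDF2L1 and MANF had the highest log2 fold changes against the controls for both targeting siRNAs (UXS1 and MRPL42), the other 8 members lay within 0.41 of 0, and members differed by at most 0.16 between the 2 targeting siRNAs. With transcript length taken into account, HSPA5 (0.27) stood above SDF2L1 and MANF (0.24 each) after UXS1 siRNA. Of the ATF4 arm, 40 of 43 tested genes were below 0 in each comparison, as were 51.0% and 52.0% of all genes tested. Of the members, 9 and 8 of 10 were above 0, but 5 and 5 without control library c.

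The promoters of the members are shown first, because they hold the elements through which the ATF6 and XBP1 arm is known to act. The members were listed as genes of that arm, so finding its elements in them is a description and not independent of their choice. RefSeq windows on GRCh38.p14, from 250 bases before to 50 bases after each annotated start, were found for 10 of 10 members. They were searched on both strands for the ER stress element (ERSE, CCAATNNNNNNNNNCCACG), ERSE-II (ATTGG and CCACG with 1 base of any kind between them), the core of the unfolded protein response element (TGACGTGG) and the CEBP-ATF element bound by ATF4 (TGATGNAA). The stretches that hold a full match are given 5′ to 3′ on the strand of the gene, with the match in capitals; a match on the other strand appears as its reverse complement.
HSPA5, ERSE, chr9:125241361-125241439, minus strand: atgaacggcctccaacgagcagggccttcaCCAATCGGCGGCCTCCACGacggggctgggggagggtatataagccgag
HSP90B1, first ERSE, chr12:103930211-103930239, plus strand: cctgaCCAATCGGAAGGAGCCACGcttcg
HSP90B1, other ERSE, chr12:103930316-103930344, plus strand: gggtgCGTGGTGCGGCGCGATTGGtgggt
XBP1, ERSE, chr22:28800598-28800626, minus strand: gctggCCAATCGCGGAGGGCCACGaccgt
CALR, ERSE, chr19:12938359-12938432, plus strand: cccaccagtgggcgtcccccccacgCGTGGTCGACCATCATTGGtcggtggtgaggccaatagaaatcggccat
CRELD2, ERSE, chr22:49918549-49918577, plus strand: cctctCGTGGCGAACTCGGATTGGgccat
SDF2L1, ERSE-II, chr22:21642084-21642154, plus strand: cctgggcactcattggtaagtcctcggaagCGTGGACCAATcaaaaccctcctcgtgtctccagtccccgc
HERPUD1, CEBP-ATF element then ERSE-II, chr16:56931961-56932040, plus strand: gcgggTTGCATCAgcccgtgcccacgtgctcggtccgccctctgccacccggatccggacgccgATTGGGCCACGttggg

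A full ERSE was present in 5 of 10 members, HSPA5, HSP90B1 (2 matches), XBP1, CALR and CRELD2, and in 27 (0.0769%) of all 35116 windows. ERSE-II was present in 2 members, SDF2L1 and HERPUD1, and in 0.0541% of windows. HERPUD1 alone among the members held a CEBP-ATF element, which is found in 3.62% of windows and in 13 of the 38 ATF4 arm genes with a window. That arm held an ERSE in 0 of 38 genes and an ERSE-II in 0 of 38. The core of the unfolded protein response element was in no member window and in 0.729% of windows. DNAJB9, PDIA4 and MANF had no full element in these windows and held the short 3′ part of the ERSE, CCACG, which every full ERSE and ERSE-II contains and which occurs in 38.1% of windows and in 10 of 10 members. These are matches of letters in a short window, not sites shown to be bound.

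**Figure D1:**
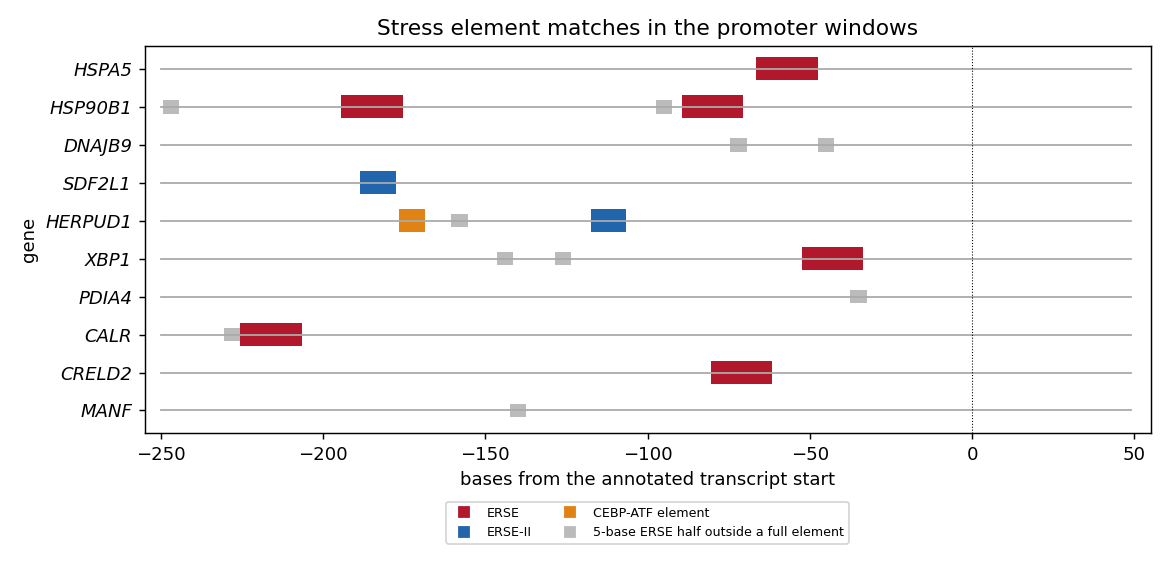
Matches of stress elements in the promoter window of each member, against the distance in bases from the annotated transcript start; red bars are ERSE, blue bars ERSE-II, the orange bar the CEBP-ATF element and grey bars the CCACG part outside a full element. HSPA5, HSP90B1, XBP1, CALR and CRELD2 hold an ERSE, SDF2L1 and HERPUD1 an ERSE-II, and DNAJB9, PDIA4 and MANF only the CCACG part.

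Control library c stood apart. Its log2 CPM (counts scaled to library size, with TMM factors) correlated with the other libraries at r between 0.951 and 0.961 across genes, whereas controls a and b reached 0.993 with each other. It was the lowest of the 9 libraries for 10 of 10 members, and for 31.9% of all genes tested. Averaged over the members, log2 CPM minus each gene's mean over the 9 libraries was -0.01, -0.02 and -0.44 in the controls a, b and c, 0.05, 0.10 and 0.06 in the UXS1 siRNA libraries and 0.06, 0.10 and 0.11 in the MRPL42 siRNA libraries. Control library c thus lay below every other library over the members, and the other 8 lay within a narrow band. On the same scale the mean of 13 hepatocyte secreted protein genes was -1.57 in control c and between 0.02 and 0.29 elsewhere. These genes did not move alike. In control c FGG was at 0 and FGB at 1.59 CPM, while APOH (56.2 CPM) and RBP4 (14.7 CPM) were at their highest there. The mean of 7 histone genes, kept as a sign of RNA quality, was 0.95 in control c. It was -0.55 and -0.39 in controls a and b and between -0.09 and 0.06 in the UXS1 and MRPL42 siRNA libraries. The histone genes thus separated controls a and b from the other 6 libraries as well. With all 9 libraries their median log2 fold changes were -0.22 and -0.30 for UXS1 and MRPL42 siRNA against control siRNA. With transcript length taken into account in the fit, their medians were -0.65 and -0.77. Their part in the members' values was not tested. Every member is given a second time with control library c left out, which was decided with these values known. That fit sets 3 libraries of a targeting siRNA against 2 controls.

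As to the cell identity, the defining hepatocyte gene ALB was at 11.96 to 14.4 CPM, apart from 3.61 in control c, and AFP at 1.64 to 2.69 CPM, while APOA1, APOA2, APOC3, TTR and HP were at or near 0 in every library. Other hepatocyte secreted protein genes were higher, with FN1 at 6384 to 8011 CPM, APOB at 55.3 to 83.8 and APOH at 38.4 to 56.2 CPM. FGA was at 72.5 to 88.2 and TF at 34.8 to 42.2 CPM, apart from 8.27 and 12.5 CPM in control c. The summed level of the fibroblast, endothelial and leukocyte markers ran from 201 to 242 CPM, and was 458 in control c, where LUM alone gave 277 CPM. Of the same markers, CD68 was at 71.9 to 130 CPM, PECAM1 at 19.3 to 38.6 and DCN at 17.7 to 25.0 CPM. KDR was at 25.0 to 36.9 CPM, apart from 3.98 in control c. CDH5 and MS4A1 were at 0 in every library. In bulk RNA, fewer cells of a type and less RNA per cell cannot be told apart. Library totals lay between 15265959 and 22400560 estimated counts, and the least abundant member in any library, SDF2L1 in control c, rested on 422 counts.

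The targets check the labels. UXS1 mRNA was at 144, 151 and 179.7 CPM in the controls a, b and c and at 145, 138 and 141 CPM after UXS1 siRNA, groups that overlapped (log2 fold change -0.17, 95% confidence interval -0.36 to 0.03, edgeR adjusted p = 0.348; exact two-sided permutation p = 0.2, where 0.1 is the smallest possible). MRPL42 mRNA was at 100.4, 118 and 147 CPM in the controls and at 104, 93.0 and 81.8 CPM after MRPL42 siRNA, also with overlap (log2 fold change -0.39, interval -0.70 to -0.07, edgeR adjusted p = 0.185; exact permutation p = 0.2). Without control c the values were -0.08 and -0.23. Between the targeting siRNAs, MRPL42 mRNA was lower in all MRPL42 siRNA libraries than after UXS1 siRNA (131, 115 and 126 CPM, exact permutation p = 0.1). UXS1 mRNA overlapped there, at 140, 156 and 147 CPM after MRPL42 siRNA (exact permutation p = 0.3). In edgeR 0 genes passed in that comparison. Neither target fell past the threshold, so the groups are named by their siRNA and are not called knockdowns.

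With all 9 libraries, 0 of 10 members passed an edgeR adjusted p of 0.05 after UXS1 siRNA, where 0.0158% of genes did, and 0 of 10 after MRPL42 siRNA, where 0% did. Unadjusted p-values below 0.05 were found for 3 and 4 members, and for 2249 and 2561 of all genes. DESeq2 called 2 members in each comparison, SDF2L1 and MANF, both higher, where it called 2.48% and 4.12% of genes higher. Without control c DESeq2 called the same 2 members in each, where it called 1.79% and 2.63% of genes higher. All libraries of UXS1 siRNA lay above all controls for 4 of 10 members, HSPA5, SDF2L1, CALR and MANF, as they did for 15.3% of all genes. All MRPL42 siRNA libraries lay above all controls for 4 of 10, SDF2L1, CALR, CRELD2 and MANF, against 11% of genes. No member lay below all controls in either comparison, against 10.9% and 10.5% of genes. Control c was the lowest of the 9 libraries for 10 of 10 members, so no other outcome was possible there.

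**Figure D2:**
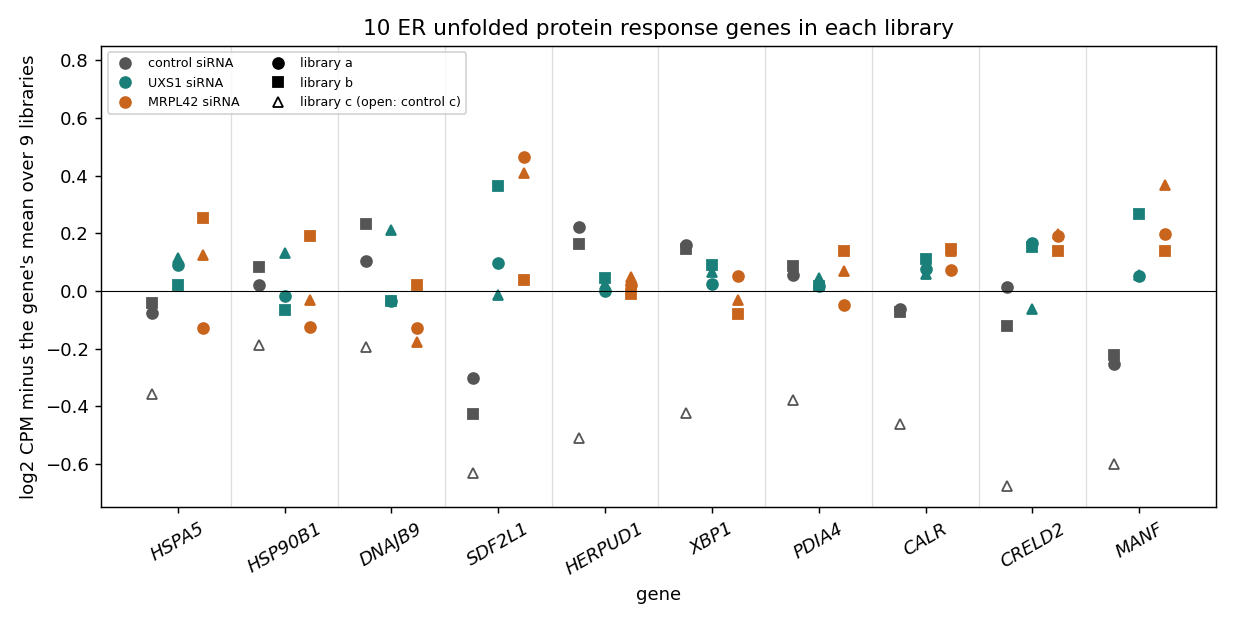
Log2 CPM of each member minus its mean over 9 libraries (vertical axis) for the 9 libraries, coloured by group and shaped by library letter; the open triangle is control library c. The open triangle is the lowest point for all 10 genes. For SDF2L1, CALR and MANF the other 2 control points also lie below every point of the targeting siRNAs.

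SDF2L1 encodes a lumenal protein that works with HSPA5 and the co-chaperone DNAJB11 to keep unfolded proteins soluble. It was measured at 28.2, 25.8 and 22.4 CPM in the controls a, b and c, at 37.1, 44.8 and 34.4 CPM after UXS1 siRNA and at 48.0, 35.7 and 46.1 CPM after MRPL42 siRNA. All 6 libraries of the targeting siRNAs lay above all 3 controls. The means were 25.5 ± 2.91 CPM (SD, n = 3) in the controls, 38.8 ± 5.38 CPM after UXS1 siRNA and 43.3 ± 6.63 CPM after MRPL42 siRNA. The log2 fold change was 0.61 (SE 0.14, interval 0.29 to 0.93, edgeR adjusted p = 0.171) for UXS1 siRNA and 0.77 (interval 0.45 to 1.09, edgeR adjusted p = 0.132) for MRPL42 siRNA. Both missed the threshold in edgeR and passed it in DESeq2 (adjusted p = 0.0137 and 0.000739).

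MANF encodes a small, soluble ER protein that binds HSPA5 and can be secreted, and is known for protecting cells under ER stress. The controls a, b and c had 57.5, 58.6 and 45.2 CPM, the UXS1 siRNA libraries 70.9, 82.3 and 71.1 CPM, and the MRPL42 siRNA libraries 78.6, 75.3 and 88.4 CPM. Here too every library of a targeting siRNA exceeded every control, also with control c set aside. The log2 fold change was 0.48 (SE 0.11, interval 0.22 to 0.73, edgeR adjusted p = 0.171) and 0.59 (interval 0.33 to 0.84, edgeR adjusted p = 0.132). Without control c the values were 0.36 (edgeR adjusted p = 0.0856) and 0.48 (interval 0.28 to 0.68, edgeR adjusted p = 0.0345), so that MANF was the 1 member to pass the edgeR threshold, and only for MRPL42 siRNA. SDF2L1 without control c stood at 0.52 (edgeR adjusted p = 0.114) and 0.68 (edgeR adjusted p = 0.0549).

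SDF2L1 and MANF also have the shortest principal transcripts of the members, 865 and 1153 bases, against 1357 to 3908 for the others. Transcripts under 1000 bases outside the lists (719 genes) shifted between libraries as well: their mean centred log2 CPM was -0.21, -0.28 and -0.40 in the controls, 0.16, 0.23 and 0.04 after UXS1 siRNA and 0.39, -0.14 and 0.22 after MRPL42 siRNA. With offsets for transcript length in the same edgeR fit, SDF2L1 stood at 0.24 (interval 0.06 to 0.41, adjusted p = 0.269) and 0.38 (0.20 to 0.55, adjusted p = 0.161), and MANF at 0.24 (0.03 to 0.45, adjusted p = 0.313) and 0.35 (0.14 to 0.56, adjusted p = 0.204). CRELD2 moved from 0.32 and 0.41 to 0.16 and 0.24. The long HSPA5 transcript moved the other way, to 0.27 and 0.30, and the spread of the members narrowed.

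HSPA5 encodes BiP, the main Hsp70 chaperone of the ER lumen, whose binding keeps the 3 stress sensors inactive. It was at 869, 890.1 and 716 CPM in the controls, 976, 929.6 and 992 CPM after UXS1 siRNA and 838, 1092 and 1000.3 CPM after MRPL42 siRNA. The UXS1 siRNA libraries lay above all controls, while MRPL42 siRNA library a fell among them. The log2 fold change was 0.23 (interval -0.02 to 0.48, edgeR adjusted p = 0.319) and 0.24 (interval -0.01 to 0.49, edgeR adjusted p = 0.254), and 0.12 and 0.15 without control c.

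HSP90B1, the ER paralog of Hsp90 (GRP94), was at 1115, 1165 and 966 CPM in the controls, 1087, 1049 and 1204 CPM after UXS1 siRNA and 1008, 1255 and 1076 CPM after MRPL42 siRNA. The 3 groups overlapped throughout. Its log2 fold change was 0.04 in both comparisons (intervals -0.19 to 0.27, edgeR adjusted p = 0.860 and 0.836), and -0.046 and -0.036 without control c. HSP90B1 shares 3444 bases with C12orf73 on the opposite strand and has the pseudogenes HSP90B2P and HSP90B3P, and the use of strand in counting was not given in the sources used here.

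DNAJB9 encodes ERdj4, a J-domain co-chaperone of HSPA5 that binds IRE1. It was at 47.4, 51.7 and 38.5 CPM in the controls, 43.0, 43.0 and 51.0 CPM after UXS1 siRNA and 40.2, 44.7 and 39.0 CPM after MRPL42 siRNA. All groups overlapped. The log2 fold changes were -0.01 (interval -0.27 to 0.26, edgeR adjusted p = 0.983) and -0.15 (interval -0.42 to 0.12, edgeR adjusted p = 0.477). Without control c DNAJB9 stood at -0.13 after UXS1 siRNA (edgeR adjusted p = 0.486). In that fit it stood at -0.26 after MRPL42 siRNA (interval -0.47 to -0.06, edgeR adjusted p = 0.154), with all 3 libraries below both controls. DNAJB9 shares 183 bases with THAP5 and 99 bases with PNPLA8 on the opposite strand, so a part of its counts may be their reads.

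PDIA4 (ERp72) forms and rearranges disulfide bonds. Its controls had 662, 676 and 489.9 CPM, the UXS1 siRNA libraries 644, 644 and 657 CPM and the MRPL42 siRNA libraries 616, 701 and 668 CPM. Both targeting siRNA groups lay between the controls or beside them. The log2 fold changes of 0.09 and 0.12 (edgeR adjusted p = 0.710 and 0.558) became -0.06 and -0.02 without control c.

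CALR encodes calreticulin, a lectin chaperone that binds glycoproteins and stores calcium. It was at 899.8, 894 and 683 CPM in the controls, 991, 1014 and 979 CPM after UXS1 siRNA and 988, 1040.2 and 1034 CPM after MRPL42 siRNA. All libraries of the targeting siRNAs lay above all controls, and these groups varied little among themselves (995 ± 17.9 and 1021 ± 28.4 CPM, SD, n = 3). The log2 fold change was 0.27 (interval 0.04 to 0.49, edgeR adjusted p = 0.224) and 0.31 (interval 0.08 to 0.53, edgeR adjusted p = 0.158), and 0.14 and 0.19 without control c (edgeR adjusted p = 0.179 and 0.103).

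CRELD2 encodes a soluble ER protein with disulfide isomerase activity. The controls had 43.1, 39.3 and 26.7 CPM, the UXS1 siRNA libraries 47.9, 47.5 and 40.9 CPM and the MRPL42 siRNA libraries 48.7, 47.1 and 48.99 CPM. UXS1 siRNA library c lay below control a, and all MRPL42 siRNA libraries lay above all controls. The log2 fold change was 0.32 (interval -0.02 to 0.67, edgeR adjusted p = 0.306) and 0.41 (interval 0.06 to 0.75, edgeR adjusted p = 0.197), and 0.13 and 0.23 without control c. CRELD2 shares 292 bases with ALG12 on the opposite strand, so a part of its counts may be ALG12 reads.

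XBP1 encodes the transcription factor of the IRE1 arm. Its total mRNA was at 178, 177 and 119 CPM in the controls, 162, 169.8 and 167 CPM after UXS1 siRNA and 165, 151 and 156 CPM after MRPL42 siRNA. The libraries of the targeting siRNAs lay between control c and the other controls, so the 3 group means were 158, 166 and 157 CPM. The log2 fold changes were 0.07 (interval -0.23 to 0.38, edgeR adjusted p = 0.799) and 0.00 (edgeR adjusted p = 0.988). Without control c these 6 libraries all lay below both controls, at -0.10 (edgeR adjusted p = 0.357) and -0.17 (interval -0.30 to -0.05, edgeR adjusted p = 0.133). Adding the length offsets to that fit gave -0.14 and -0.23, the latter past the threshold (edgeR adjusted p = 0.0346). The share of all genes called in that fit is not given here. XBP1 also has the processed pseudogene XBP1P1.

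HERPUD1 encodes a membrane protein of the ER-associated degradation complex, and is a gene that both ATF6 and ATF4 are known to induce. It followed XBP1: the controls had 70.6, 67.9 and 42.6 CPM, the UXS1 siRNA libraries 60.6, 62.5 and 61.7 CPM and the MRPL42 siRNA libraries 61.6, 60.1 and 62.7 CPM. The 6 libraries of the targeting siRNAs spanned under 3 CPM and sat between control c and the other controls. The log2 fold change was 0.03 in both comparisons (edgeR adjusted p = 0.937 and 0.936), with intervals of -0.33 to 0.38. Without control c it was -0.18 (interval -0.30 to -0.06, edgeR adjusted p = 0.136) and -0.17 (interval -0.30 to -0.05, edgeR adjusted p = 0.131).

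**Figure D3:**
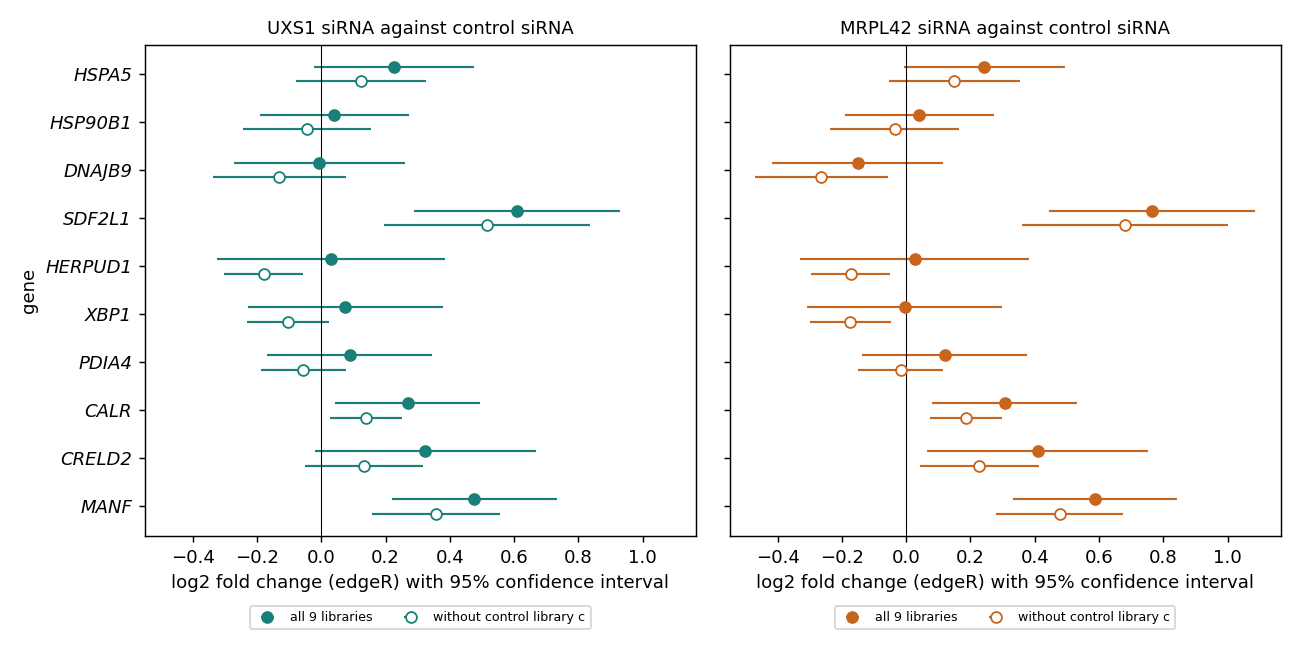
Log2 fold change of each member with its 95% confidence interval from edgeR, for UXS1 siRNA (left) and MRPL42 siRNA (right) against control siRNA; filled points use all 9 libraries and open points leave out control library c. SDF2L1 (0.61 and 0.77) and MANF (0.48 and 0.59) lie farthest to the right, and every open point lies to the left of its filled point.

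Against controls a and b alone, 4 members lay above and 3 below all controls after UXS1 siRNA (above: HSPA5, SDF2L1, CALR and MANF; below: HERPUD1, XBP1 and PDIA4), where 22.2% of all genes lay above and 18.5% below. After MRPL42 siRNA 4 members lay above (SDF2L1, CALR, CRELD2 and MANF) and 3 below (DNAJB9, HERPUD1 and XBP1), where 16.4% and 17.5% of genes did. In each comparison 5 of 10 log2 fold changes were then above 0, in place of 9 and 8, while 51.1% and 51.2% of all genes tested were below 0, so the members' share was close to that of all genes. The edgeR fit called 0 and 1 members higher, where it called 0.49% and 0.553% of genes higher.

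The targeting siRNAs were also compared with each other, a comparison that does not use the controls' means. Its intervals and p-values still use a spread estimated over all 9 libraries, control c among them. In edgeR 218 of all genes had an unadjusted p below 0.05 here, and 692 without control c. No member did in either fit. Over the 10 members the log2 fold change of UXS1 siRNA against MRPL42 siRNA lay between -0.16 (SDF2L1) and 0.14 (DNAJB9). All 95% confidence intervals fell between -0.47 and 0.41. No member passed the edgeR test (0 of 10, where 0% of all genes did; smallest unadjusted p = 0.254, adjusted p = 1.00), DESeq2 called 0, and the libraries of the 2 groups overlapped for 10 of 10 members, where 5.79% of genes lay above and 4.31% below. Differences as large as these limits lie within the intervals.

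Levels of different members are compared per length, as CPM per kilobase of the principal transcript. The control means (± SD, n = 3) were 434 ± 65.0 for CALR, 379 ± 36.4 for HSP90B1, 211 ± 24.3 for HSPA5 and 209.9 ± 35.7 for PDIA4, all in CPM per kilobase. These abundant chaperones stood at percentile 97.8 or above among the 12573 tested genes with a known length. XBP1 followed at 85.3 ± 18.2, MANF at 46.6 ± 6.46, SDF2L1 at 29.4 ± 3.37, CRELD2 at 26.8 ± 6.33, HERPUD1 at 20.5 ± 5.25 and DNAJB9, at percentile 65.4, at 16.9 ± 2.48 CPM per kilobase. Neighbours in this order lay within their SDs of each other for CALR and HSP90B1, for HSPA5 and PDIA4 and among SDF2L1, CRELD2, HERPUD1 and DNAJB9. The order of the means was the same in all 3 groups. In controls a and b, PDIA4 (228 and 233) lay above HSPA5 (222 and 228 CPM per kilobase), and in control c below it. With the targeting siRNAs CRELD2 and HERPUD1 lay farther apart, at 33.5 ± 2.91 and 20.9 ± 0.333 after UXS1 siRNA and 35.6 ± 0.762 and 20.9 ± 0.431 CPM per kilobase after MRPL42 siRNA.

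Over the 9 libraries the 45 pairs of members had Pearson r of log2 CPM from -0.32 (DNAJB9 and SDF2L1) to 0.96 (HERPUD1 and XBP1), with a median of 0.64 and 42 pairs above 0. The libraries share their scaling, and control c is low for every member. Without it, over 8 libraries, the median was -0.07 and 21 pairs were above 0. HERPUD1 with XBP1 was then at 0.80, and the chain of SDF2L1 with MANF, MANF with CALR and CALR with CRELD2 at 0.94, 0.92 and 0.77. DNAJB9 went against CRELD2 (-0.96), and HERPUD1 against CALR (-0.88). The members were thus no single co-varying block among the other 8 libraries.

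The genes outside the list whose log2 CPM was most like the members' mean over 9 libraries, among 10477 genes of at least 5 CPM, were CSF1 (r = 0.999), TYMS (0.996), APOL1 (0.994), FADS2 (0.993) and CYP24A1 (0.990). All 5 were low in control c, for example CYP24A1 at 2.44 CPM against 27.6 and 30.2 CPM in the other controls. Over 8 libraries their r was 0.983, 0.942, 0.954, 0.903 and 0.887, and the number of genes above 0.9 went from 523 to 77.

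Other ER genes were taken from lists of the same pathway. Among 30 further chaperones and disulfide isomerases none passed the edgeR threshold in either comparison (3 and 5 had an unadjusted p below 0.05, and DESeq2 called 1 and 2 higher). Over all 12657 genes, beside which these and the following lists stand, edgeR gave such a p for 2249 and 2561. DESeq2 called 2.48% and 4.12% of genes higher. Of the 30 genes, 20 were above 0 in each, and the median log2 fold change was 0.06 and 0.12, against 0.16 and 0.18 for the members and 0.00 and -0.01 for all genes tested. Without control c these medians were 0.02 and 0.03 for the further chaperones and 0.04 and 0.07 for the members. HYOU1, the large lumenal Hsp70 that exchanges the nucleotide of HSPA5, was at 369, 343 and 225 CPM in the controls and at 319 to 352 CPM after the targeting siRNAs. Its UXS1 siRNA libraries lay between control c and the other controls, while MRPL42 siRNA b and c lay above control b. The co-chaperones DNAJB11 (0.11 and 0.14) and DNAJC3 (0.05 and 0.04), the disulfide isomerases PDIA3 (0.15 and 0.14), PDIA6 (0.14 and 0.13) and P4HB (-0.02 and 0.05) and the membrane lectin CANX (0.05 and -0.01) lay within 0.15 of 0. The highest of the named genes of this list were FKBP2 (0.51 and 0.66) and PPIB (0.46 and 0.49), both prolyl isomerases, and neither passed (edgeR adjusted p of 0.135 or more). With length offsets they stood at 0.02 and 0.13 (FKBP2) and at 0.20 and 0.21 (PPIB).

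Of 21 tested genes of ER-associated degradation none passed in edgeR (3 and 6 unadjusted; DESeq2 called 0 and 1), with 14 and 13 below 0 and medians of -0.02 and -0.01. SEL1L, the scaffold of the ubiquitin ligase complex, stood at -0.11 and -0.13, its ligase SYVN1 at -0.11 and -0.04, and the mannosidase-like EDEM1 at -0.15 and -0.10. DERL3, a channel component that XBP1 is known to induce strongly, had 0.0530 to 0.646 CPM and was not tested. Of 18 sensors and cofactors none passed with all libraries in edgeR (1 and 2 unadjusted) or in DESeq2 (2 and 3 unadjusted): ATF6 stood at -0.07 and -0.13, EIF2AK3 at -0.07 and -0.11. ERN1, which encodes IRE1, was at 33.9, 34.8 and 22.6 CPM in the controls, 24.3, 24.9 and 25.6 CPM after UXS1 siRNA and 28.4, 24.1 and 27.5 CPM after MRPL42 siRNA. Without control c ERN1 fell by 0.47 after UXS1 siRNA (edgeR adjusted p = 0.0191), and stood at -0.37 after MRPL42 siRNA (edgeR adjusted p = 0.0633). Of 31 genes for ER entry and COPII export none passed in edgeR (8 and 7 unadjusted; DESeq2 called 1 and 3), with medians of 0.00 and -0.04. The translocon-associated SSR4 was the highest of these (0.95 and 1.03, edgeR adjusted p = 0.171 and 0.135), and stood at 0.51 and 0.52 with length offsets.

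The ATF4 and CHOP arm was set beside the members as the other output of ER stress. Of 46 genes 43 were tested, and 40 lay below 0 in each comparison, with medians of -0.41 and -0.36. With all 9 libraries 1 passed the edgeR threshold, STC2 after UXS1 siRNA, where 0.0158% of genes were called lower. None passed after MRPL42 siRNA, where 0% were (unadjusted p below 0.05 for 21 and 19). In the same data DESeq2 called 11 lower in each comparison, where it called 1.15% and 1.22% of genes lower. The libraries did not overlap for 13 genes below the controls after UXS1 siRNA and for 12 after MRPL42 siRNA, as for 10.9% and 10.5% of all genes. STC2, a secreted glycoprotein, fell from 102, 93.7 and 113 CPM in the controls to 53.6, 59.9 and 60.3 CPM after UXS1 siRNA (log2 fold change -0.83, edgeR adjusted p = 0.0304) and was at 66.5, 58.2 and 62.8 CPM after MRPL42 siRNA (-0.72, edgeR adjusted p = 0.0939).

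Control c was low for most of this arm too. ASNS, asparagine synthetase, was at 243, 261 and 85.3 CPM in the controls, 107, 107 and 119 CPM after UXS1 siRNA and 130.5, 100.3 and 105 CPM after MRPL42 siRNA. ATF4 itself was at 332, 331 and 183 CPM in the controls and at 224 to 296 CPM after the targeting siRNAs. Averaged over the 43 genes, centred log2 CPM was 0.51, 0.47 and -0.36 in the controls, -0.17, -0.09 and -0.10 after UXS1 siRNA and 0.06, -0.25 and -0.08 after MRPL42 siRNA. Averaged over the members, the controls a and b lay slightly below the targeting siRNA libraries, whereas averaged over the ATF4 arm they stood above them. Single members differed. Controls a and b lay below every targeting siRNA library for SDF2L1, CALR and MANF and above every one for HERPUD1 and XBP1. For the other members they overlapped.

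Without control c the edgeR fit called 30 of 43 lower after UXS1 siRNA and 26 after MRPL42 siRNA, where it called 1.07% and 0.79% of genes lower, and 0 higher. The arm's medians were then -0.55 and -0.46. In the same fit 7 of 7 histone genes were above 0, with medians of 0.35 and 0.32. None of them was called, and 6 and 4 of them lay above both controls in every library, as did 22.2% and 16.4% of genes. CD68, a macrophage marker that other cells also express, was called higher (0.44 and 0.54, edgeR adjusted p = 0.00732 and 0.00326). The part of either in the arm's values was not tested. ASNS fell by 1.19 and 1.17 on the log2 scale (edgeR adjusted p = 0.00118 and 0.00191), SESN2, a stress-induced inhibitor of mTORC1 signalling, by 1.10 and 0.89 (0.00172 and 0.00617), and STC2 by 0.76 and 0.64 (0.00168 and 0.00452). CHAC1, which degrades glutathione, fell by 1.32 after UXS1 siRNA (0.0204) and stood at -0.97 after MRPL42 siRNA (0.0768). TRIB3, a pseudokinase induced by ATF4 and CHOP, fell by 0.53 after UXS1 siRNA (0.0366) and stood at -0.42 after MRPL42 siRNA (0.0883). ATF4 mRNA stood at -0.43 and -0.35 (edgeR adjusted p = 0.0690 and 0.109). DDIT3, which encodes CHOP, was at 0.01 and 0.07 and was 1 of 3 and of 2 genes of the arm above 0. HERPUD1, the member with both an ERSE-II and a CEBP-ATF element, stood at -0.18 and -0.17 in that fit, with both comparisons sharing the same controls. It was not called (edgeR adjusted p = 0.136 and 0.131). In each comparison 5 of 10 members were below 0 there. Among them were XBP1 (-0.10 and -0.17) and DNAJB9 (-0.13 and -0.26), which hold no CEBP-ATF element. The part of the element in these values was not tested.

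**Figure D4:**
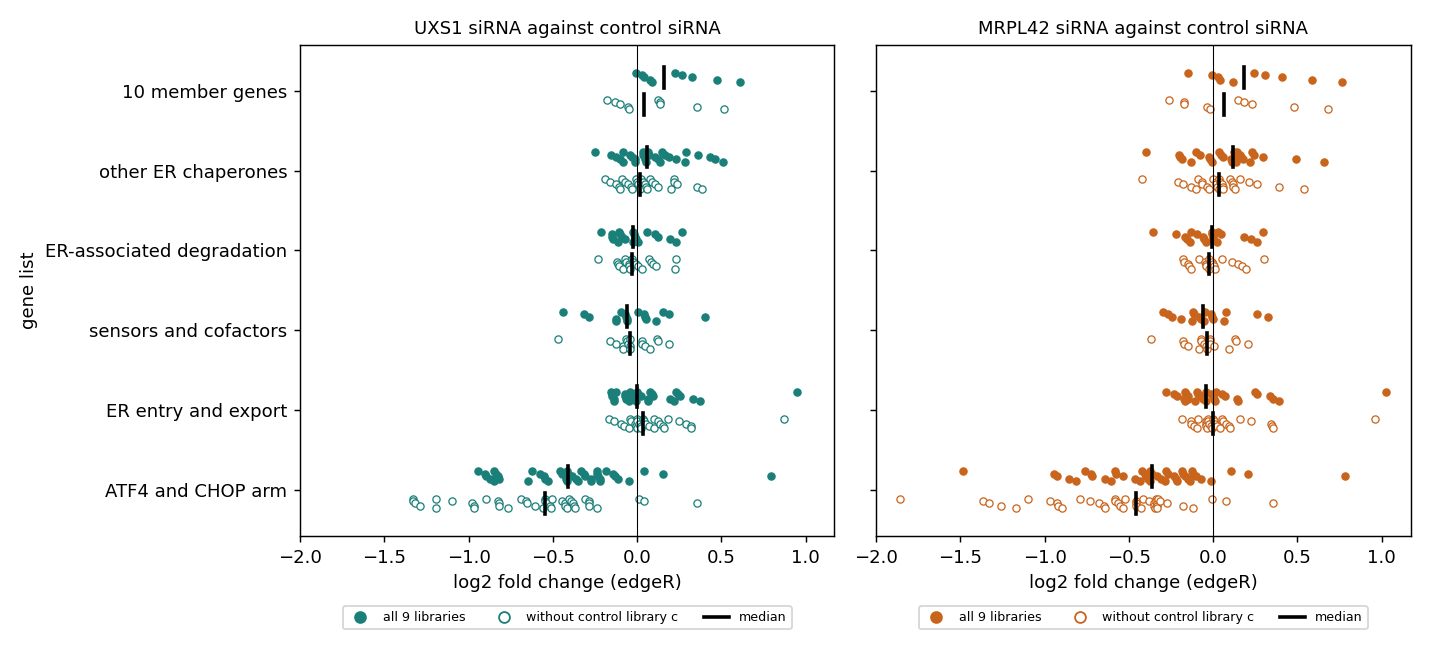
Log2 fold change from edgeR of every tested gene (points) in the members and 5 further lists, with the median of each list as a bar, for UXS1 siRNA (left) and MRPL42 siRNA (right) against control siRNA; filled points use all 9 libraries and open points leave out control library c. The ATF4 and CHOP arm has medians of -0.41 and -0.36, while the medians of the members are 0.16 and 0.18. Without control c they are -0.55 and -0.46 for the arm and 0.04 and 0.07 for the members.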

How the data were processed

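Bead-captured, fragmented mRNA was made into PCR-amplified libraries, per the labels' protocols. The submitters' processing notes name fastp, Bowtie2, HISAT2, edgeR and hg38. Versions, roles, the counting program and its use of strand were not given in the sources used here. In the authors' table the values are estimated counts, not normalized (83.6% to 84.9% of those above 0 per library are whole). Its 9 other sample columns were left out. A column's name gave its group (UXS1 appears with 2 letters exchanged). Their letters a, b and c are tied to no repeat number.

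Counts were rounded to whole numbers, filtered with filterByExpr (12657 genes), scaled by TMM and fitted with edgeR 4.0.16 (limma 3.58.1, R 4.3.3) with 1 mean per group over 9 libraries. The design had been written for raw counts. Quasi-likelihood p-values are two-sided and adjusted by Benjamini-Hochberg over all genes tested, with a threshold of 0.05. Alternatives were DESeq2 1.42.0, its size factors in edgeR, no filter, only the 6 libraries compared, transcript length offsets (lowess span 0.3) and leaving out each library. Without control c, with DESeq2 or length offsets, was added after seeing the data. Since PCR copies carry no molecular identifiers, counts overstate the molecules read.

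The members, the lists and the tests were chosen with earlier results of these data known. Named genes are the members, both targets, a fixed set from the ER and ATF4 lists, up to 4 called genes or the 2 with the smallest p of other lists, and the 5 genes most like the members. Fits were tested on simulated data. Of genes given a 1.5-fold change, 37.3% were recovered for UXS1 siRNA and 55.2% for MRPL42 siRNA against control siRNA. Changes of that size can therefore be missed. Gene positions and lengths come from GENCODE 29 on GRCh38 (20128 identifiers found), promoters from RefSeq.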

Additional observations from a re-analysis of the deposited data

How the results depend on the processing

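No member passed the edgeR threshold with all 9 libraries, and the same held with other size factors, no filter, only the 6 libraries compared or length offsets. For UXS1 siRNA against control siRNA the count was 2 with DESeq2, 2 without control c in DESeq2, and 0 to 1 when single libraries were left out (1, SDF2L1, without MRPL42 siRNA b). For MRPL42 siRNA it was 2 with DESeq2, 2 without control c in DESeq2, 2 without control c with length offsets (SDF2L1 higher, XBP1 lower), and 0 to 2 when single libraries were left out (1 without control c, 2 without MRPL42 siRNA b). Between the targeting siRNAs it was 0 throughout. These counts stand beside those over all 12657 genes tested, except in the fit without control c with length offsets. For that fit no count over all genes is given here, so its 2 calls have no background to be read against. Without MRPL42 siRNA b edgeR called 316 genes higher and 38 lower for UXS1 siRNA, and 751 and 63 for MRPL42 siRNA. Without control c it called 70 and 100 for MRPL42 siRNA. DESeq2 called 2.48% and 4.12% of genes higher with all libraries, and 1.79% and 2.63% without control c. HSPA5, SDF2L1, CALR, CRELD2 and MANF kept values above 0 under all alternatives. With single libraries left out, the others crossed 0 after UXS1 siRNA: HSP90B1 from -0.046 to 0.098, DNAJB9 from -0.13 to 0.088, HERPUD1 from -0.18 to 0.16, XBP1 from -0.10 to 0.17 and PDIA4 from -0.056 to 0.17. After MRPL42 siRNA HSP90B1 ran from -0.054 to 0.10, HERPUD1 from -0.17 to 0.15, XBP1 from -0.17 to 0.091 and PDIA4 from -0.016 to 0.20. Without control c, DESeq2 and length offsets gave, after UXS1 siRNA, -0.039 and -0.025 for HSP90B1, -0.17 and -0.16 for HERPUD1, -0.097 and -0.14 for XBP1, and -0.049 and -0.034 for PDIA4. After MRPL42 siRNA they gave -0.032 and -0.022 for HSP90B1, -0.17 and -0.15 for HERPUD1, and -0.012 and -0.00046 for PDIA4. The cause was not tested. No paired analysis was possible because the column letters are tied to no repeat number in the labels.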

Other observations

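Among 15 cytosolic and mitochondrial heat shock genes none passed the edgeR threshold with all 9 libraries (1 and 3 had an unadjusted p below 0.05, and DESeq2 called 1 in each comparison), with medians of -0.05 and -0.06 for UXS1 and MRPL42 siRNA against control siRNA. Of all 12657 genes, 2249 and 2561 had such a p in edgeR, and DESeq2 called 2.48% and 4.12% higher. HSPE1, the mitochondrial co-chaperonin, was at 98.9, 91.0 and 96.0 CPM in the controls, 122, 139 and 119 CPM after UXS1 siRNA and 130.2, 118 and 133 CPM after MRPL42 siRNA, with all libraries of the targeting siRNAs above all controls and control c level with the other controls. Its log2 fold change was 0.41 and 0.42 (edgeR adjusted p = 0.145 and 0.132). Without control c HSPE1 was the only gene of this list to pass, at 0.41 and 0.42 (edgeR adjusted p = 0.0430 and 0.0429). With transcript length offsets HSPE1 stood at 0.084 and 0.082 with all libraries (edgeR adjusted p = 0.654 and 0.602) and at 0.14 and 0.13 without control c (edgeR adjusted p = 0.367 and 0.381), so the call was lost. HSPB1, a small cytosolic heat shock protein, had 367, 336 and 195 CPM in the controls and 368 to 486 CPM after the targeting siRNAs (0.47 and 0.58, edgeR adjusted p = 0.291 and 0.191), and 0.13 and 0.23 with length offsets.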
